A study of Mus musculus with 12 samples.

Results

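The NF-kB pathway was followed through 10 genes: the transcription factor subunits Nfkb1, Nfkb2, Rela and Relb, the IkB genes Nfkbia and Nfkbiz, the ubiquitin-editing inhibitor gene Tnfaip3, and the induced genes Tnfaip2, Birc3 and Traf1. They were taken by gene symbol from a table of read counts for 55421 Ensembl genes, and all 10 were found once and passed the low-count filter that left 18108 genes to test. Polyadenylated RNA had been sequenced from MOC2, a mouse oral squamous cell carcinoma line, in a 2 by 2 design with 3 libraries per group and 12 in all. The study asked what extracellular vesicles (EVs), the membrane particles that cells shed, contribute to the output of senescent tumour cells. The libraries labelled EV-proficient came from the derivative named MOC2-25. Those labelled EV-deficient came from the derivative MOC2-27, in which a genetic block of vesicle release had been made in a gene left unnamed by the labels. Each label stands for 1 derivative, so EV status and derivative cannot be told apart. Each derivative was sampled as a control, with DMSO as the labelled treatment, or treated with paclitaxel (600 nM, 48 h). Paclitaxel stabilises microtubules, and the study used it to make the cells senescent. All groups were grown in vitro in the same medium with serum, hydrocortisone, cholera toxin, transferrin, insulin, tri-iodothyronine and EGF. Nothing in the labels says whether the 3 libraries of a group came from independent cultures, so p-values measure the spread between these libraries, which may be technical.

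NF-kB factors are dimers of the Rel family that are held in the cytoplasm by inhibitors of the IkB class. Signals from TNF, interleukin-1 and Toll-like receptors activate the IKK kinases, which mark the inhibitor for degradation and let RelA and p50 dimers into the nucleus. A slower, non-canonical branch processes the Nfkb2 product to p52, the usual partner of RelB. Among the genes the factors induce are their own inhibitors, a negative feedback, and the pathway is a known driver of the cytokine secretion of senescent cells. Its activity is set largely by degradation and movement of proteins, which RNA counts do not measure.

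Library totals ran from 23263472 to 62955757 counts, and the 10 genes together held between 0.0945% and 0.116% of a library's counts. Of the 9 squamous epithelial markers, Krt8, Krt18, Epcam and Cdh1 were at 386 CPM or more in every library (CPM are read counts scaled to library size). Krt14 ran from 77.3 to 730, Sfn from 48.6 to 360 and Krt6a from 2.03 to 335 CPM, each highest in EV-deficient DMSO and lowest in EV-deficient paclitaxel libraries, while Krt5 reached at most 0.170 and Trp63 at most 0.180 CPM, both near 0. A dngfr sequence, a row the authors added to the table and whose carrier is not stated in the labels, stood crosswise to the EV labels. It lay at 5.72 to 12.2 CPM in EV-proficient and 1.89 to 2.54 CPM in EV-deficient DMSO libraries, but at 2.47 to 3.76 and 9.62 to 12.4 CPM in the corresponding paclitaxel libraries. Every group is named as labelled, and whether the EV labels of 1 treatment are exchanged was not tested. Such an exchange would turn the sign of the EV label differences in that treatment and mix the derivatives in every paclitaxel fold change and interaction given below. It would leave the counts that set all 6 paclitaxel against all 6 DMSO libraries as they are. Mitochondrial genes held 0.550% to 0.729% of counts in DMSO and 0.846% to 1.45% in paclitaxel libraries.

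The promoters of the genes in which the feedback is best known show where the factors' recognition letters lie. The windows span 250 bases before to 50 bases after a gene's start in RefSeq (build GRCm38.p6), printed on the gene's strand. RefSeq windows were matched for 7 of the 10 genes, 10 windows in all, and for Nfkb1, Relb and Nfkbiz none was matched. Capitals mark letters that match, on either strand, GGGNNTTTC, GGGNNTTCC or the general kappaB consensus, and these patterns overlap one another. Tnfaip2 is shown because its RNA changed most in the EV-proficient libraries, and the other genes for their density of matches.
Nfkb2, first start, chr19:46304487-46304786, plus strand: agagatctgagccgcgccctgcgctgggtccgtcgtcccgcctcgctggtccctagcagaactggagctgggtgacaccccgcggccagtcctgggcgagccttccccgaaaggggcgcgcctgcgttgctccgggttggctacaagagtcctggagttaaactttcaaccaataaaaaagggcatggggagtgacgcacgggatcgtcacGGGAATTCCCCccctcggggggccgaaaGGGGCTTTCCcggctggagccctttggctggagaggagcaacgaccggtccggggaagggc
Nfkbia, chr12:55492598-55492897, minus strand: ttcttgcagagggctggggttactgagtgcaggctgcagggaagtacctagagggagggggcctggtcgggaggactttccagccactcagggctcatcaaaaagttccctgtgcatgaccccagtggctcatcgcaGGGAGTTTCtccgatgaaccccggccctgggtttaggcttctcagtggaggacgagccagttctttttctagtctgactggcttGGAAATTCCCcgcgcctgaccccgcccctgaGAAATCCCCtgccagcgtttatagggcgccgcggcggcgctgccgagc
Tnfaip3, chr10:19015361-19015660, minus strand: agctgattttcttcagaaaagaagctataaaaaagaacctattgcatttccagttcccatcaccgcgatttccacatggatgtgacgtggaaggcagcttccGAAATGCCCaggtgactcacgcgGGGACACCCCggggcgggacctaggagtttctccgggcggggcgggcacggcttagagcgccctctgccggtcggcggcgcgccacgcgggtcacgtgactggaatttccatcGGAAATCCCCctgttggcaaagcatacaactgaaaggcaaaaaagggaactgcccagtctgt
Tnfaip2, chr12:111442411-111442710, plus strand: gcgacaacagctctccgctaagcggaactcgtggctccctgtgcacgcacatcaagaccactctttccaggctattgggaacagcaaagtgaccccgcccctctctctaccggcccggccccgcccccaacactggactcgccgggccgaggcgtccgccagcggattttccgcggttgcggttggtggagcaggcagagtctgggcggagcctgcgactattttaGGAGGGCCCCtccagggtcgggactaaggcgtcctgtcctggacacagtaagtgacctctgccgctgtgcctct
At least 1 pattern was present in 7 of the 10 windows, belonging to 5 of the 7 genes, against 15% of all 32851 promoter windows in the same table. GGGNNTTTC was found in 6 of the 10 windows (4.36% of all windows), GGGNNTTCC in 2 (5.82%) and the general consensus in 6 (8.46%). The Nfkb2 window shown overlaps no other. The other two Nfkb2 windows overlap and share 1 match, which is counted in both. In the Nfkb2 window shown, the 2 capital runs begin at bases 212 and 240 counted from the 5′ end. In Nfkbia the runs begin at bases 138, 222 and 253. The single run in Tnfaip2, which matches only the general consensus, begins at base 227. The Birc3 and Traf1 windows and the second Tnfaip3 window held none of the patterns. A match describes letters and not a bound site.

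Levels between genes were compared per kilobase of exon (RPKM, with the union of GENCODE M21 exons as the length). In EV-proficient DMSO libraries Nfkb2 led at 66 ± 4.32 and Rela followed at 59 ± 3.1 RPKM (SD, n = 3 in every group mean here), and the ranges of this pair overlapped. Nfkbia (34.3 ± 2.44), Tnfaip3 (25.3 ± 1.42), Nfkbiz (21 ± 0.977), Nfkb1 (13.6 ± 0.18) and Relb (9.15 ± 0.172) came next, none overlapping its neighbour. Tnfaip2 (3.86 ± 0.122), Traf1 (2.55 ± 0.223) and Birc3 (1.1 ± 0.17) closed the order. Under paclitaxel Nfkbia moved to first place in both derivatives, at 53.5 ± 0.497 RPKM in the EV-proficient and 62.2 ± 3.27 RPKM in the EV-deficient libraries, above Nfkb2 at 43.8 ± 1.79 and 41.9 ± 4.61 RPKM. Tnfaip2 took sixth place in paclitaxel libraries of both labels and in EV-deficient DMSO libraries stood seventh, at 10.6 ± 0.217 RPKM. In EV-deficient DMSO libraries Nfkb2 overlapped Rela, and Nfkbia overlapped Tnfaip3. In EV-deficient paclitaxel libraries the pairs Nfkb2 and Rela, Nfkbiz and Tnfaip3, Tnfaip2 and Nfkb1, Nfkb1 and Relb, and Traf1 and Birc3 each overlapped. The long exon union of Nfkb1, 12061 bases, lowers its level per kilobase.

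**Figure D1:**
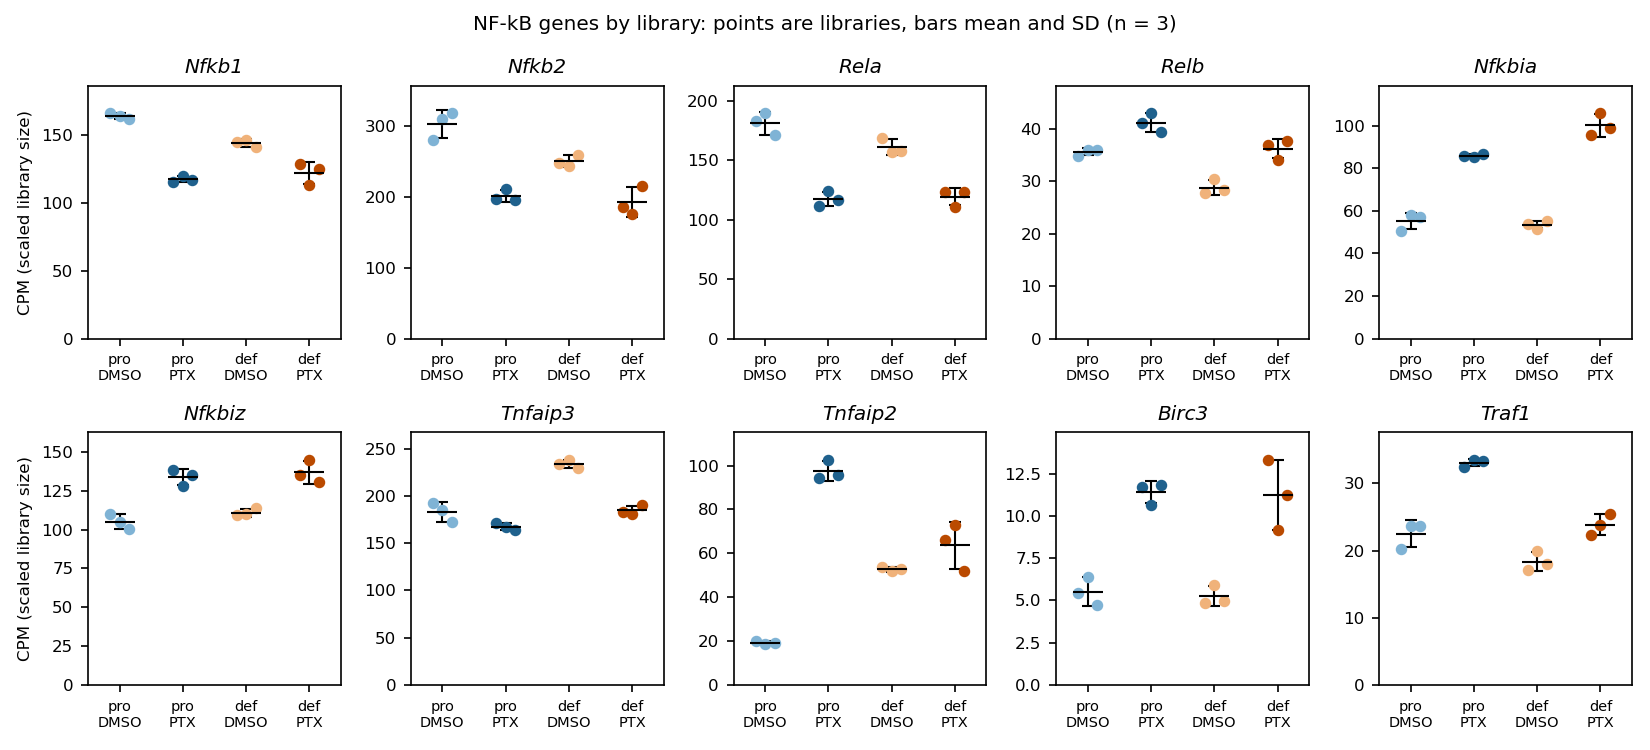
CPM on scaled library sizes (vertical axes, from 0) of the 10 genes in the 4 groups; points are libraries, the bars the group mean and SD over 3 libraries, pro and def the EV-proficient and EV-deficient labels, and PTX paclitaxel. Rela, Nfkb1 and Nfkb2 were lower and Nfkbia, Nfkbiz and Birc3 higher in all 6 paclitaxel than in all 6 DMSO libraries, while Tnfaip2 lay between 18.7 and 19.9 CPM in EV-proficient DMSO libraries and above 50 CPM in every other library.

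Paclitaxel was first compared with DMSO within each derivative. The RNAs of the canonical subunits fell, and those of the inhibitor Nfkbia, the nuclear IkB protein gene Nfkbiz and the survival gene Birc3 rose, in both. Of the 10 genes, 9 passed the test in the EV-proficient libraries, 6 higher and 3 lower, where 58.2% of all genes tested did (31.1% higher and 27.1% lower). In the EV-deficient libraries all 10 passed, 6 higher and 4 lower, against 62.9% of all genes (32.4% higher and 30.5% lower). With so much of the transcriptome moving, a call by itself sets the 10 genes little apart. Their median log2 fold change was 0.28 in the EV-proficient and 0.29 in the EV-deficient libraries, and that of all genes 0.05 and 0.07. Libraries did not overlap between treatments for 10 of the 10 genes in the EV-proficient derivative, 6 higher and 4 lower (62.3% of all genes, 33.1% higher and 29.2% lower). In the EV-deficient one they did not overlap for 9, 5 higher and 4 lower (68.7%, 35.2% higher and 33.5% lower). Pooling both derivatives, 6 of the 10 genes separated all 6 paclitaxel from all 6 DMSO libraries, a count that does not depend on the EV labels with 3 higher and 3 lower, and that compares with 36.8% of all genes (18.3% higher and 18.5% lower). Other markers moved with the drug as well. The summed squamous markers went from 5066 to 5497 CPM under DMSO to 3511 to 3839 CPM under paclitaxel in the EV-proficient libraries, and from 5672 to 6180 CPM to 3077 to 3194 CPM in the EV-deficient ones. Not every member followed the sum. In the EV-proficient libraries Epcam went from 386 to 424 CPM up to 794 to 839 CPM, and Krt14 lay at 182 to 206 CPM under DMSO and 178 to 202 CPM under paclitaxel. The 5 fibroblast markers summed to 1.55 to 3.16 CPM under DMSO and 5.26 to 8.03 CPM under paclitaxel, and the 4 endothelial markers to 1.94 to 2.56 and 2.75 to 4.76 CPM. Pdgfra made up 55.3% to 76.7% of the fibroblast sum in a library. In the EV-proficient libraries Pecam1 (0.292 to 0.497 under DMSO, 0.890 to 1.44 CPM under paclitaxel) and Tie1 (0.0718 to 0.170, 0.202 to 0.457 CPM) were higher with the drug. Cdh5 (1.05 to 1.61, 0.896 to 1.11 CPM) and Kdr (0.414 to 0.878, 0.474 to 0.685 CPM) overlapped. The part of all these markers in the paclitaxel results was not tested. In bulk RNA fewer cells expressing a gene and less RNA per cell cannot be told apart.

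Rela (ENSMUSG00000024927, chr19:5637483-5648130, plus strand) encodes p65, the main activating subunit of the canonical branch; gene positions here and below are those of GENCODE M21 on GRCm38, and all 10 are protein-coding genes. It stood at 183, 190 and 171 CPM in the EV-proficient DMSO libraries and at 112, 124 and 116 CPM under paclitaxel. In the EV-deficient derivative it stood at 169, 157 and 158 CPM under DMSO and at 123, 111 and 124 CPM under paclitaxel. Every paclitaxel library was below every DMSO library. The fall was 1.55-fold in the EV-proficient libraries (log2 fold change -0.63 ± 0.06 SE, adjusted p 3.2e-08 by edgeR's quasi-likelihood test) and 1.35-fold in the EV-deficient ones (-0.44 ± 0.06 SE, edgeR adjusted p 4e-06).

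Nfkb1 (ENSMUSG00000028163, chr3:135584655-135691547, minus strand), the gene of p105 and its product p50, fell from 162 to 166 CPM under DMSO to 115 to 120 CPM under paclitaxel in the EV-proficient libraries (log2 fold change -0.48 ± 0.06 SE, edgeR adjusted p 3.6e-07). The EV-deficient libraries lay at 141 to 146 CPM under DMSO and 113 to 128 CPM under paclitaxel (-0.24 ± 0.06 SE, edgeR adjusted p 0.0011). The groups were apart in both derivatives, and the smaller fall was lost with upper-quartile scaling (-0.06, edgeR adjusted p 0.41). That scaling moved the median of all genes by 0.18 in this comparison, and it shifted the other genes upward alike.

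Nfkb2 (ENSMUSG00000025225, chr19:46304320-46312385, plus strand), the gene of p100 and its product p52, was counted at 280, 310 and 318 CPM in EV-proficient DMSO and 196, 210 and 196 CPM in EV-proficient paclitaxel libraries. Its EV-deficient values were 248, 243 and 259 CPM under DMSO and 186, 175 and 216 CPM under paclitaxel. All paclitaxel libraries were again the lower ones, by 1.51-fold in the EV-proficient (log2 fold change -0.59 ± 0.07 SE, edgeR adjusted p 3.4e-07) and 1.3-fold in the EV-deficient derivative (-0.38 ± 0.07 SE, edgeR adjusted p 8.3e-05). Exons of Psd lie on the opposite strand of Nfkb2, and whether counting used strand is not given in the sources used here. Psd was counted at between 5.05% and 11.1% of the Nfkb2 level and also fell under paclitaxel, by 1.71 on the log2 scale in the EV-proficient and by 0.58 in the EV-deficient libraries. Between EV labels Psd was at -0.50 under DMSO and 0.63 under paclitaxel, where Nfkb2 was at -0.27 and -0.06. Reads of the pair may not be fully separated, which was not tested. A further annotated gene on that strand, AC114539.1, was not analysed here.

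Relb (ENSMUSG00000002983, chr7:19606217-19629438, minus strand), the subunit of the non-canonical branch, moved the other way. Its EV-proficient libraries lay at 34.8, 36 and 35.9 CPM under DMSO and at 41.2, 43 and 39.3 CPM under paclitaxel (log2 fold change 0.21 ± 0.07 SE, edgeR adjusted p 0.014). Its EV-deficient libraries lay at 27.7, 30.4 and 28.3 CPM and at 36.9, 34.1 and 37.6 CPM (0.33 ± 0.07 SE, edgeR adjusted p 0.00035). Treatments did not overlap within a derivative. The rise in the EV-proficient libraries lost its call without EV-proficient paclitaxel replicate 1 (0.17) or 2 (0.12), EV-proficient DMSO replicate 1 (0.20), or EV-deficient paclitaxel replicate 1 (0.17) or 3 (0.17).

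Among the inhibitors, Nfkbia (ENSMUSG00000021025, chr12:55489410-55492647, minus strand), the gene of IkB-alpha that retains RelA in the cytoplasm, rose in both derivatives. The EV-proficient libraries gave 50.7, 57.9 and 57.1 CPM under DMSO and 85.8, 85.4 and 86.9 CPM under paclitaxel. The EV-deficient libraries gave 53.7, 51.7 and 55.2 CPM under DMSO and 95.8, 106 and 98.8 CPM under paclitaxel. All 6 treated libraries were above all 6 controls, and the 3 EV-deficient treated libraries were the highest. The rise was 1.56-fold in the EV-proficient (log2 fold change 0.64 ± 0.07 SE, edgeR adjusted p 3.3e-08) and 1.87-fold in the EV-deficient derivative (0.90 ± 0.07 SE, edgeR adjusted p 9.9e-11).

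Nfkbiz (ENSMUSG00000035356, chr16:55811375-55838899, minus strand), whose product IkB-zeta acts in the nucleus as a co-activator of a set of late targets, rose from 100 to 110 CPM to 128 to 138 CPM in the EV-proficient libraries (log2 fold change 0.35 ± 0.06 SE, edgeR adjusted p 4.8e-05). In the EV-deficient libraries it went from 109 to 114 CPM to 131 to 145 CPM (0.30 ± 0.06 SE, edgeR adjusted p 0.00017). The treatments were apart in both.

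Tnfaip3 (ENSMUSG00000019850, chr10:19000910-19015657, minus strand), the gene of the ubiquitin-editing enzyme A20 that shuts off signalling from the TNF receptor, did not follow Nfkbia. It was counted at 192, 185 and 172 CPM in EV-proficient DMSO and 172, 168 and 164 CPM in EV-proficient paclitaxel libraries. In the EV-deficient derivative it was counted at 233, 238 and 230 CPM under DMSO and 183, 181 and 190 CPM under paclitaxel. The EV-deficient DMSO libraries stood above all others, and the remaining groups lay close together. The fall passed in the EV-deficient derivative (log2 fold change -0.34 ± 0.06 SE, edgeR adjusted p 2.1e-05) and not in the EV-proficient one (-0.13 ± 0.06 SE, edgeR adjusted p 0.063). The latter passed with DESeq2 (-0.15), with median-of-ratios scaling (-0.15), and without EV-proficient DMSO replicate 3 (-0.17), EV-proficient paclitaxel replicate 1 (-0.19) or 2 (-0.18), or any 1 of the 3 EV-deficient paclitaxel libraries (-0.17 each).

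Tnfaip2 (ENSMUSG00000021281, chr12:111442469-111455018, plus strand), a TNF-induced gene whose product promotes tunnelling nanotubes between cells, had the largest change of the 10 in the EV-proficient libraries. In the EV-deficient libraries its change was smaller in size than those of the other genes except Nfkb1. Its EV-proficient libraries rose from 19.9, 18.7 and 19.1 CPM under DMSO to 94.4, 103 and 95.5 CPM under paclitaxel. Its EV-deficient libraries were at 53.9, 51.8 and 52.6 CPM under DMSO and at 66.2, 72.8 and 51.9 CPM under paclitaxel. The EV-proficient groups were far apart, whereas in the EV-deficient derivative the lowest treated library lay within the control range. The rise was 5.07-fold in the EV-proficient (log2 fold change 2.34 ± 0.09 SE, edgeR adjusted p 3.6e-14) and 1.2-fold in the EV-deficient libraries (0.27 ± 0.09 SE, edgeR adjusted p 0.011). The smaller rise lost its call without EV-deficient DMSO replicate 2 (0.24), or EV-deficient paclitaxel replicate 1 (0.23) or 2 (0.16). Leukocyte markers also differed between the groups. The summed level of the 8 listed was 7.80 to 8.95 CPM in EV-proficient DMSO, 40.4 to 45.9 in EV-proficient paclitaxel, 21.2 to 22.1 in EV-deficient DMSO and 27.5 to 47.6 CPM in EV-deficient paclitaxel libraries. Most of that sum was Cd68 and Csf1r, which did not move alike. Cd68, which many cell types express in lysosomes, lay at 6.18 to 6.93, 27.8 to 31.4, 7.40 to 8.46 and 21.4 to 39.2 CPM in these groups. Csf1r, the macrophage growth factor receptor gene, lay at 0.755 to 1.05, 11 to 12.6, 11.9 to 12.8 and 3.98 to 7.01 CPM, and was the larger of the pair in EV-deficient DMSO libraries. In the EV-deficient derivative Csf1r was thus lower under paclitaxel than under DMSO, whereas Tnfaip2 rose. Ptprc, the pan-leukocyte marker, stayed at or below 1.54 CPM and Cd3e, Lyz2 and Adgre1 were near 0 in every library. The part of this in the result was not tested. An annotated gene on the opposite strand, Gm40578, also overlaps Tnfaip2 exons and was not analysed here, so the limit on strand given for Nfkb2 holds for Tnfaip2 too.

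Birc3 and Traf1 belong to the survival arm of TNF receptor signalling. Birc3 (ENSMUSG00000032000, chr9:7848699-7873186, minus strand), the gene of the ubiquitin ligase cIAP2, was the least abundant of the 10, with between 161 and 716 reads per library. It stood at 5.43, 6.41 and 4.71 CPM in EV-proficient DMSO and 11.7, 10.6 and 11.8 CPM in EV-proficient paclitaxel libraries, and at 4.83, 5.92 and 4.98 against 13.3, 9.19 and 11.2 CPM in the EV-deficient derivative. Every treated library was above every control. The rise was 2.06-fold (log2 fold change 1.04 ± 0.15 SE, edgeR adjusted p 3.6e-06) and 2.15-fold (1.10 ± 0.15 SE, edgeR adjusted p 9.9e-07). Traf1 (ENSMUSG00000026875, chr2:34941750-34961772, minus strand), an adaptor that binds cIAP proteins, rose from 20.3, 23.6 and 23.7 to 32.5, 33.5 and 33.3 CPM in the EV-proficient libraries (0.56 ± 0.09 SE, edgeR adjusted p 1.2e-05). In the EV-deficient libraries it rose from 17.1, 19.9 and 18 to 22.3, 23.8 and 25.5 CPM (0.38 ± 0.09 SE, edgeR adjusted p 0.00071), and the treated EV-deficient libraries overlapped the untreated EV-proficient ones.

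**Figure D2:**
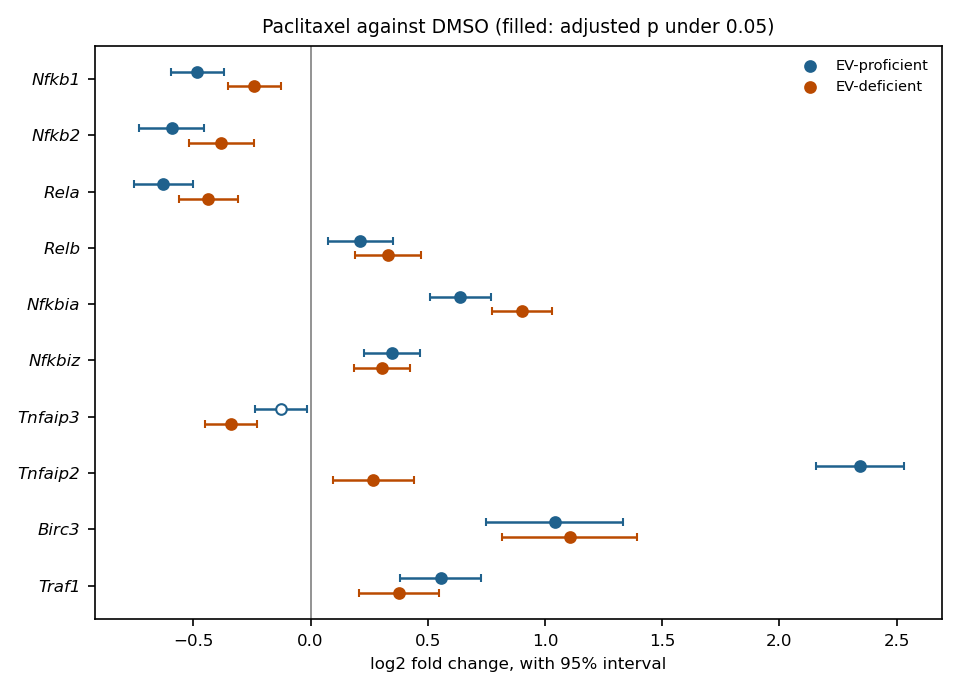
Log2 fold change of paclitaxel against DMSO (horizontal axis) with its 95% interval for the 10 genes in each derivative; filled points passed the test. Rela, Nfkb1 and Nfkb2 lie left of 0 and Relb, Nfkbia, Nfkbiz, Birc3 and Traf1 right of 0 in both derivatives, and Tnfaip2 lies at 2.34 in the EV-proficient and 0.27 in the EV-deficient libraries.

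The EV labels were then compared under DMSO, which asks how the derivatives differ without drug. This comparison shares its libraries with those above. Of the 10 genes, 6 passed the test, 2 higher and 4 lower in the EV-deficient libraries, where 23% of all genes passed (12.4% higher and 10.6% lower). The median log2 difference was -0.12 over the 10 genes and 0.04 over all genes. Tnfaip2 was 2.75-fold higher in the EV-deficient libraries (log2 difference 1.46 ± 0.09 SE, edgeR adjusted p 1.6e-10) and Tnfaip3 1.28-fold higher (0.35 ± 0.06 SE, edgeR adjusted p 7.4e-05). The 4 lower genes were Relb (-0.31 ± 0.07 SE, edgeR adjusted p 0.0032), Nfkb2 (-0.27 ± 0.07 SE, edgeR adjusted p 0.007), Traf1 (-0.30 ± 0.09 SE, edgeR adjusted p 0.018) and Nfkb1 (-0.19 ± 0.06 SE, edgeR adjusted p 0.023). Groups of 7 genes did not overlap, 2 higher and 5 lower (43.3% of all genes, 24.8% higher and 18.5% lower), these 6 and Rela (-0.17 ± 0.06 SE, edgeR adjusted p 0.064). The 95% intervals of the remaining differences were -0.17 to 0.08 for Nfkbia, -0.04 to 0.20 for Nfkbiz and -0.38 to 0.22 for Birc3. Markers differed between the same libraries: the leukocyte sum was 7.80 to 8.95 CPM in EV-proficient and 21.2 to 22.1 CPM in EV-deficient DMSO libraries. The keratin genes Krt6a (39.4 to 43.8 against 300 to 335 CPM) and Krt14 (182 to 206 against 645 to 730 CPM) were also higher in the EV-deficient ones, and the squamous sum was 5066 to 5497 against 5672 to 6180 CPM. The part of these in the result was not tested.

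Some of these calls changed with the libraries or settings used. The Nfkb1 difference lost its call when any 1 of the 6 DMSO libraries was left out (-0.16 without EV-deficient DMSO replicate 3 to -0.19 without EV-proficient DMSO replicate 3), and with no low-count filter (-0.14). Traf1 lost it without EV-deficient DMSO replicate 1 (-0.24) or 3 (-0.27), without EV-proficient DMSO replicate 2 (-0.25) or 3 (-0.25), and with no filter (-0.25). Rela gained a call when any 1 of the 6 paclitaxel libraries was left out (-0.21 each) and with DESeq2, the stricter filter, either other scaling or a fit of the compared groups alone (-0.18 to -0.20). Tnfaip2, Tnfaip3, Nfkb2 and Relb were called under all 20 alternatives.

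Under paclitaxel, which asks how the treated derivatives differ, 4 of the 10 genes passed, 1 higher and 3 lower in the EV-deficient libraries, near the 37.8% of all genes that did (16% higher and 21.8% lower). Nfkbia was 1.16-fold higher (log2 difference 0.22 ± 0.06 SE, edgeR adjusted p 0.01). Tnfaip2 was 1.53-fold lower (-0.62 ± 0.09 SE, edgeR adjusted p 1.1e-05), the opposite of its difference under DMSO. Traf1 was 1.39-fold lower (-0.47 ± 0.09 SE, edgeR adjusted p 0.00018). Relb was lower by 0.19 ± 0.07 SE on the log2 scale (-0.19, edgeR adjusted p 0.042), and groups of 5 genes did not overlap, 2 higher and 3 lower (44.1% of all genes, 19.9% higher and 24.1% lower), these 4 and Tnfaip3 (0.14 ± 0.06 SE, edgeR adjusted p 0.057). The Relb call was made under only 8 of 20 alternatives. It was lost without EV-deficient DMSO replicate 3 (-0.20), EV-deficient paclitaxel replicate 1 (-0.21) or 2 (-0.14), and EV-proficient paclitaxel replicate 1 (-0.19) or 2 (-0.15), and it was -0.09 with upper-quartile scaling. Tnfaip3 gained a call under 6 of the 20, among them the fit without EV-deficient paclitaxel replicate 2 (0.17). The 95% intervals of the other differences were -0.06 to 0.17 for Nfkb1, -0.20 to 0.08 for Nfkb2, -0.10 to 0.15 for Rela, -0.08 to 0.15 for Nfkbiz and -0.29 to 0.26 for Birc3. The direction turned under some alternatives for Nfkb2, Rela and Birc3, and Nfkb1 gained a call with upper-quartile scaling (0.15, edgeR adjusted p 0.041). Markers differed between these libraries too, EV-proficient against EV-deficient. The squamous sum was 3511 to 3839 against 3077 to 3194 CPM, Epcam 794 to 839 against 423 to 615 CPM and Csf1r 11 to 12.6 against 3.98 to 7.01 CPM. Cdh1 went the other way (595 to 615 against 774 to 800 CPM). Mitochondrial genes held 0.846% to 0.907% against 1.07% to 1.45% of counts. The part of these in the result was not tested.

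**Figure D3:**
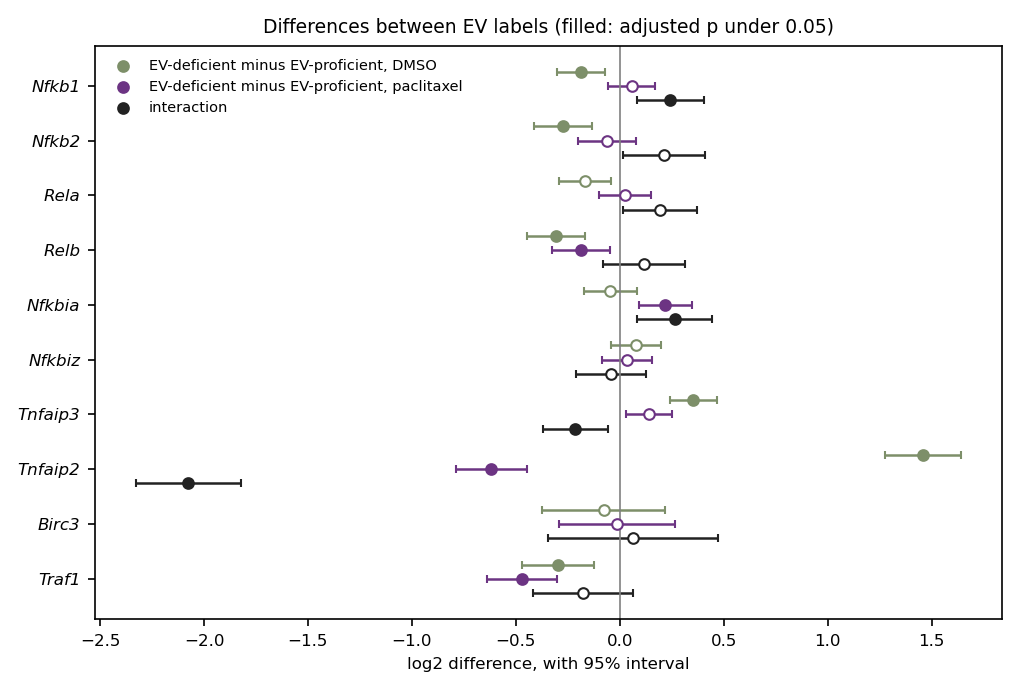
Log2 difference of EV-deficient minus EV-proficient libraries under DMSO and under paclitaxel, and their interaction, the paclitaxel effect in EV-deficient minus that in EV-proficient libraries (horizontal axis), with 95% intervals; filled points passed the test. Tnfaip2 stands at 1.46 under DMSO, -0.62 under paclitaxel and -2.07 for the interaction, and all other values lie between -0.47 and 0.35.

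Whether paclitaxel acted differently in the derivatives was tested directly as an interaction, the log2 effect in the EV-deficient minus that in the EV-proficient libraries. It passed for 4 of the 10 genes, 2 positive and 2 negative, against 40.7% of all genes (16.9% positive and 23.8% negative). The rise of Tnfaip2 was smaller in the EV-deficient libraries by 2.07 ± 0.13 SE (interaction -2.07, edgeR adjusted p 3.4e-11). The rise of Nfkbia was larger (0.27 ± 0.09 SE, edgeR adjusted p 0.026), the fall of Nfkb1 was smaller (0.24 ± 0.08 SE, edgeR adjusted p 0.022) and Tnfaip3 fell further (-0.21 ± 0.08 SE, edgeR adjusted p 0.039). Only the Tnfaip2 interaction of these 4 was called under all 19 alternatives. The count of 4 went to 1 without EV-deficient DMSO replicate 1 or 2 and to 2 without EV-proficient DMSO replicate 2 or 3. For the genes not called, the 95% intervals were 0.01 to 0.41 for Nfkb2, 0.01 to 0.37 for Rela, -0.08 to 0.31 for Relb, -0.21 to 0.13 for Nfkbiz, -0.34 to 0.47 for Birc3 and -0.42 to 0.06 for Traf1. Nfkb2 (0.32 and 0.29) and Rela (0.29 and 0.28) gained a call without EV-deficient or without EV-proficient paclitaxel replicate 2. Both also gained it with the filter of 1 CPM in 3 libraries (0.26 for Nfkb2 and 0.24 for Rela), DESeq2 (0.26 and 0.23) and upper-quartile scaling (0.34 and 0.31), and Rela with median-of-ratios scaling (0.23).

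The 10 genes did not share 1 pattern over the libraries. Each gene's log2 CPM was standardised over the 12 libraries, and likeness was measured as the root mean square difference between the profiles, in SD units. Rela and Nfkb1 were nearest to each other, at 0.209, and Nfkb2 was nearest to Rela at 0.334. Relb and Traf1 formed a pair at 0.376 and Nfkbia and Nfkbiz another at 0.379, with Birc3 nearest to Nfkbia at 0.407. Tnfaip2 (0.602 to Nfkbiz) and Tnfaip3 (0.969 to Rela) had no near neighbour among the 10. Since all profiles share the 12 libraries and the paclitaxel contrast, these distances are descriptions. The mean profile of the 10 genes was most nearly matched, among 9877 other genes with a mean of at least 5 CPM, by Pigv (0.778), Mfsd12 (0.781), Fbxo6 (0.785), H1f0 (0.786) and Tmco4 (0.788). Because genes that fell and genes that rose cancel in that mean, none of these was close, and among the 10 themselves the distance to it ran from 0.788 for Birc3 to 1.10 for Tnfaip3.

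**Figure D4:**
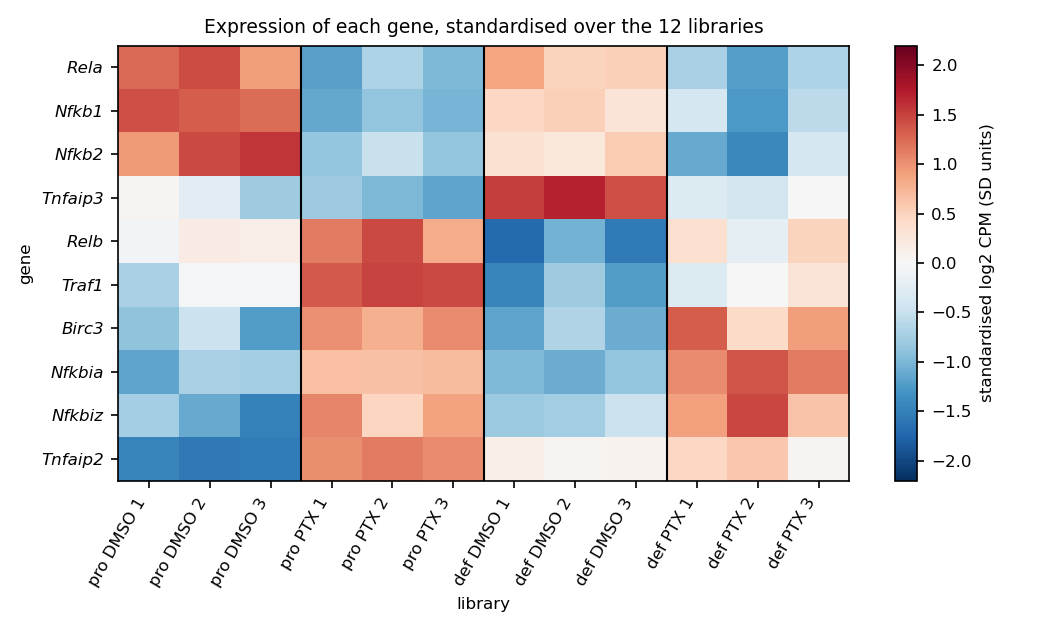
Log2 CPM of the 10 genes (rows) in the 12 libraries (columns), standardised per gene and coloured in SD units from blue (low) to red (high); pro and def are the EV-proficient and EV-deficient labels and PTX is paclitaxel. The rows Rela, Nfkb1 and Nfkb2 turn from red under DMSO to blue under paclitaxel in both derivatives, Nfkbia, Nfkbiz and Birc3 turn from blue to red, and Tnfaip3 is red in the 3 EV-deficient DMSO libraries.

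The wider pathway was read from 82 listed genes in 5 groups, of which 80 were tested. Cd40lg had no read in any library, and Il6, the interleukin-6 gene, had at most 12. Under paclitaxel 52 of the 80 passed in the EV-proficient libraries (33 higher and 19 lower) and 66 in the EV-deficient ones (44 higher and 22 lower), which is 65% and 82.5% beside the 58.2% and 62.9% of all genes. The median log2 fold change was 0.15 and 0.44, against 0.05 and 0.07 for all genes.

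Of the 5 other Rel and IkB genes, 3 passed in the EV-proficient libraries (1 higher, 2 lower), near the 58.2% of all genes that did. In the EV-deficient ones 5 passed (3 higher, 2 lower), beside 62.9% of all genes. Nfkbid, the gene of another nuclear IkB protein, fell in the EV-proficient libraries (log2 fold change -1.01) and rose in the EV-deficient ones (1.98), at low levels between 0.229 and 1.62 CPM. Nfkbib, the gene of IkB-beta, fell in both (-0.71 and -0.98), and Bcl3, an IkB-like co-activator of p50 and p52, rose in both (0.42 and 0.37). Rel, the gene of c-Rel, fell in the EV-deficient libraries (-0.62) and was at -0.10 without a call in the EV-proficient ones.

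The 22 kinases, adaptors and ubiquitin enzymes moved in both directions, with medians of 0.02 and -0.11. In the EV-proficient libraries 7 rose and 7 fell (63.6% called, beside 58.2% of all genes), and in the EV-deficient ones 6 rose and 11 fell (77.3%, beside 62.9%). Traf5 rose (log2 fold change 1.35 and 1.56) at low levels, between 0.526 and 2.98 CPM and on at most 138 reads in a library. Map3k14, the gene of the kinase NIK that starts the non-canonical branch, fell (-0.57 and -0.83). Map3k8, the gene of the kinase TPL2 that p105 holds, rose in the EV-proficient libraries (0.67) and fell in the EV-deficient ones (-0.88).

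Of the 20 ligands and receptors tested, 8 rose and 3 fell in the EV-proficient libraries, so that 55% were called, beside 58.2% of all genes. In the EV-deficient ones 13 rose and 2 fell (75% called, beside 62.9%), and the medians were 0.56 and 1.06. Tnf itself stayed at or below 0.808 CPM in every library and was not called in either derivative (log2 fold change 0.79 and 0.38). In the EV-proficient libraries Tnfsf12, the gene of TWEAK, rose most (3.95), followed by Tnfrsf13c (2.14), and Tnfsf11, the gene of RANKL, fell most (-1.34), while in the EV-deficient libraries it rose (2.30). In the EV-deficient ones Cd40 (3.75) and Tnfrsf1b, the gene of TNF receptor 2 (2.64), rose most. The changes of Tnfsf12, Tnfrsf13c, Tnfsf11 and Cd40 rest on few reads, at 3.89 CPM or less in every library. The TWEAK receptor gene Tnfrsf12a fell in both (-0.48 and -0.97).

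Among 12 other negative regulators, 8 rose and 1 fell in the EV-proficient libraries, where 31.1% of all genes rose and 27.1% fell. In the EV-deficient ones 7 rose and 3 fell, where 32.4% of all genes rose and 30.5% fell. Usp18, which is also an interferon-induced gene, rose most (log2 fold change 4.03 and 5.65), followed by Nlrc5 (2.59) in the EV-proficient and Tnip3 (3.31) in the EV-deficient libraries. Otulin, the gene of a deubiquitinase for linear chains, fell in both (-0.88 and -0.76).

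Of the 21 other target genes tested, 9 rose and 6 fell in the EV-proficient libraries, with a median of 0.11 (71.4% called, beside 58.2% of all genes). In the EV-deficient ones 15 rose and 4 fell, with a median of 1.13 (90.5% called, beside 62.9%). Lcn2, the lipocalin-2 gene, rose most in both (log2 fold change 6.36 and 7.24), from 0.375 to 0.819 CPM in DMSO libraries to between 44.5 and 88.6 CPM under paclitaxel. The monocyte chemokine gene Ccl2 fell in the EV-proficient (-1.88) and rose in the EV-deficient libraries (3.25), and the neutrophil chemokine gene Cxcl2 did likewise (-1.33 and 1.43). Vcam1, a leukocyte adhesion receptor gene, rose in the EV-deficient libraries (3.37) and was at 0.11 without a call in the EV-proficient ones. Ptgs2, the gene of cyclooxygenase 2, fell in both (-0.65 and -1.72). The interaction passed for 16 of these 21 genes, 12 of them positive, among them Ccl2 (5.14) and Vcam1 (3.26). Over the 80 pathway genes it passed for 46 (57.5%), 28 positive and 18 negative, beside 40.7% of all genes (16.9% positive and 23.8% negative).

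**Figure D5:**
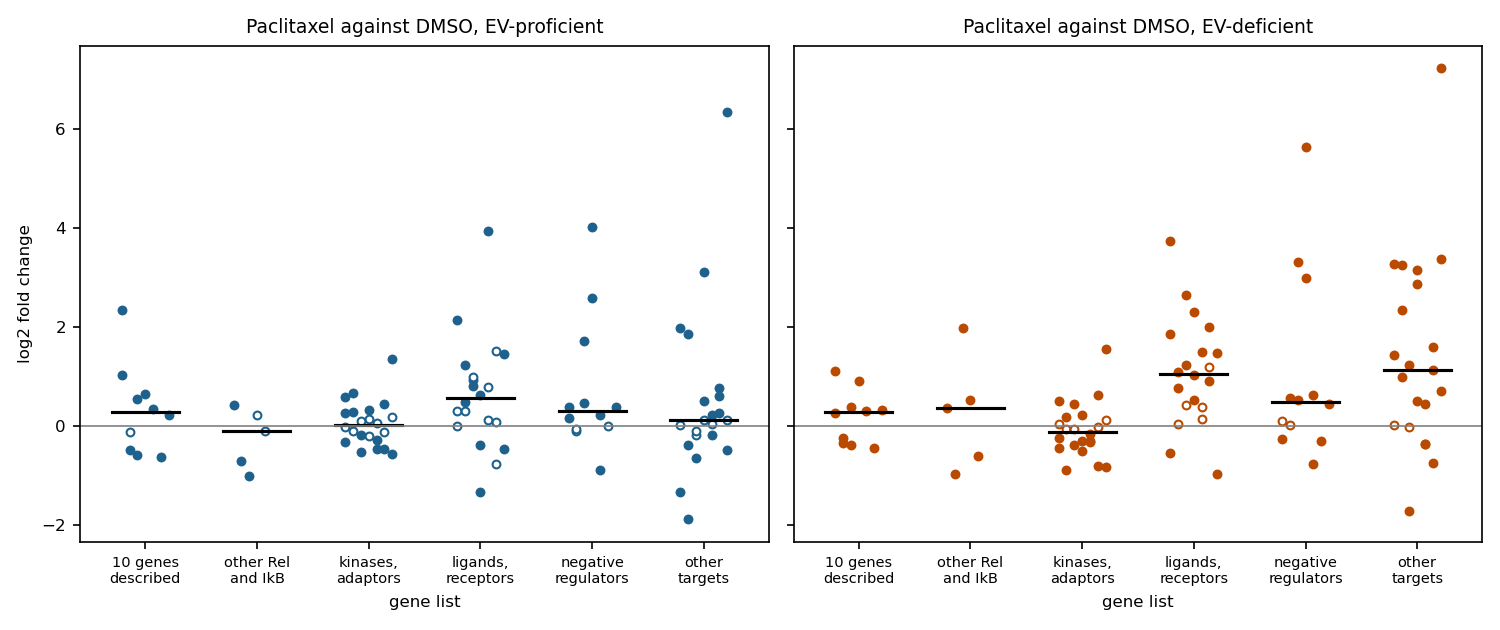
Log2 fold change of paclitaxel against DMSO (vertical axis) for each tested gene of the 10 described here and of 5 other pathway lists (horizontal axis), in the EV-proficient and the EV-deficient libraries; filled points passed the test and bars are list medians. The median of the other targets is 0.11 in the EV-proficient and 1.13 in the EV-deficient panel, while that of the 10 genes is 0.28 and 0.29, and Lcn2 is the highest point in each.

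Between the EV labels, 29 of the 80 pathway genes passed under DMSO (13 higher and 16 lower in EV-deficient libraries, 19 in all without EV-deficient DMSO replicate 1) and 41 under paclitaxel (27 higher and 14 lower). These are 36.2% and 51.2% of the list, beside 23% and 37.8% of all genes. Targets made up 14 and 15 of them. Under DMSO the target genes Ccl2 (log2 difference -1.59) and Cxcl2 (-1.02) were the lowest and Csf2 (0.94) and Ptgs2 (0.64) the highest in EV-deficient libraries. Under paclitaxel Ccl2 (3.55) and Vcam1 (2.48) were the highest and Ptgs2 (-0.43) the lowest. The dngfr sequence changed sides between the treatments as well, as given above, and its part in these differences was not tested.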

How the data were processed

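The authors deposited 1 table of whole-number read counts per gene, not normalized, for 12 libraries made with a stranded poly(A) kit, per the labels' protocols. The submitters' processing notes name STAR 2.5.0a and GRCm38. The counting program, the annotation release and the use of strand are not given in the sources used here. Columns were matched to samples by the descriptions in the labels. The 2 sequences added by the authors, gfp (0 counts in every library) and dngfr, were left out of library sizes and tests. They held at most 0.00142% of counts.

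In R 4.3.3, edgeR 4.0.16 filtered genes (filterByExpr, minimum count 10), scaled libraries by TMM and fitted group means to all libraries in 1 quasi-likelihood model. P-values were adjusted by Benjamini-Hochberg over the 18108 genes tested, threshold 0.05. CPM uses scaled library sizes, SE is the log2 fold change over the root of the F statistic, and 95% intervals are 1.96 SE to each side. For likeness a prior count of 2 was added before taking log2 CPM. No pair of replicates agreed within sampling noise (chi-square per degree of freedom 4.34 to 31.4). Alternatives were 2 other scalings, 2 filters, DESeq2 1.42.0 (on the genes that passed the edgeR filter), limma-voom 3.58.1, a block for the replicate number, a fit of the compared groups alone, and each library left out. The tests were first run on simulated counts. A first requirement on the recovery of changes over all genes was missed, low-count genes being recovered less often, and it was then set on genes at 5 CPM or more, where it was met. Several of the wider pathway's genes lie below that level. The requirement covered the larger simulated fold changes and not the smallest. The simulation changed far fewer genes than were called here, and in a single group, so it does not check calls in data that move this widely.

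Gene positions and lengths came from GENCODE M21 (GRCm38) and promoters from RefSeq. The members and lists were chosen with earlier results of these data known. Named genes were all 10 members and, per pathway list, up to 2 of the highest and 2 of the lowest fold changes past the threshold; Tnf, Rel in the EV-proficient libraries and Vcam1 there are named outside that rule, as are the counterparts of an example in the other comparison, chosen after their values were seen.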

Additional observations from a re-analysis of the deposited data

Results flagged for a closer look

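The effect of paclitaxel differed between the derivatives for 4 of the 10 genes by the interaction term of edgeR, 40.7% of all genes doing so. For Tnfaip2 the paclitaxel effect in EV-deficient minus that in EV-proficient libraries was -2.07 (edgeR adjusted p 3.4e-11; -2.14 to -1.91 over 19 alternatives, all called). In all 3 EV-proficient paclitaxel libraries it was above the DMSO range, and in 2 of the 3 EV-deficient ones.

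For Nfkbia the difference was 0.27 (edgeR adjusted p 0.026) and was called under 14 of 19 alternatives, with a range of 0.20 to 0.39. The call was lost without EV-deficient DMSO replicate 1 (0.25) or 2 (0.23) and without EV-proficient DMSO replicate 2 (0.21) or 3 (0.23). For Nfkb1 it was 0.24 (edgeR adjusted p 0.022), called under 13 of 19, with a range of 0.18 to 0.37. It was lost without any 1 of the 3 EV-deficient DMSO libraries (0.21 to 0.24) and without EV-proficient DMSO replicate 1 (0.22) or 2 (0.23). For Tnfaip3 it was -0.21 (edgeR adjusted p 0.039), called under 6 of 19, with a range of -0.28 to -0.09. It was lost when any 1 of the 6 paclitaxel libraries, EV-deficient DMSO replicate 1 or 2, or EV-proficient DMSO replicate 3 was left out (-0.23 to -0.15). The dngfr values given in the report move with the EV labels in opposite directions under the 2 treatments, and their part in these differences was not tested.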

How the results depend on the processing

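Over 990 values of the 10 genes under the alternatives, 872 kept direction and call, 57 lost a call, 37 gained one and 24 changed sign, none of the latter past the threshold. The cause of these changes was not tested. Signs turned for differences near 0: between EV labels under paclitaxel for Birc3 (0.026 with 1 CPM in 3 libraries, 0.0071 with DESeq2 and with median-of-ratios scaling, 0.011 with only the groups compared, 0.081 with upper-quartile scaling, -0.16 to 0.12 with a library left out), for Nfkb2 (0.033 with upper-quartile scaling, -0.15 to 0.0098 with a library left out) and for Rela (-0.00048 with no filter, -0.012 to 0.082 with a library left out), and under DMSO for Birc3 (-0.17 to 0.051 with a library left out). They also turned for the interactions of Birc3 (-0.0016 with no filter, -0.075 to 0.24 with a library left out) and Nfkbiz (0.0080 with 1 CPM in 3 libraries, 0.080 with upper-quartile scaling, -0.092 to 0.031 with a library left out). Of the counts of genes called, the interaction count of 4 was 2 with no low-count filter and 1 to 5 with a library left out, and the count of pathway genes between EV labels under DMSO was 19 to 31 with a library left out. Upper-quartile scaling moved the median of all genes by 0.18 for paclitaxel in EV-deficient libraries, where it gave Nfkb2 -0.20, Rela -0.25, Tnfaip3 -0.16, Relb 0.51, Nfkbiz 0.49 and Tnfaip2 0.45, and by 0.12 for the interaction. Birc3, with the fewest reads, had the widest errors.

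The replicate numbers showed no strong pairing of the samples: of 18 same-numbered pairs none deviated together with a correlation over 0.1 (-0.0812 to 0.0970), and 9 of 18 correlated best with their own number. Between DMSO and paclitaxel, the own number was best for every EV-deficient replicate and for EV-proficient replicates 1 and 3. The check therefore cannot decide whether the samples were paired. With the number as a replicate block, Relb lost its call between EV labels under paclitaxel (-0.19, edgeR adjusted p 0.051), and the other calls of the 10 genes stood.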
